A study of Drosophila melanogaster with 8 samples.

Results

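The genes that carry and make the pigments of the *Drosophila* eye were followed in the RNA of the pupal central nervous system (CNS). They are 10 genes chosen by name, the transporter genes *w*, *st* and *bw*, the ommochrome enzymes *cn* and *v*, and the pteridine genes *ry*, *pr*, *se*, *Hn* and *Pu*. All 10 were found among the 13989 genes listed at both ages, and 6 of them (*w*, *bw*, *ry*, *pr*, *se* and *Pu*) were above 1 FPKM (mapped fragments scaled by transcript length and by library size) in every group, as were 8312 genes in all.

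The study asked which genes depend on store-operated calcium entry in developing neurons, and for this lowered *dStim*, the calcium sensor of the endoplasmic reticulum. Wild type pupae were Canton S. Knockdown pupae were ElavC155GAL4; dStimRNAi/tubulinGAL80ts, in which a pan-neuronal driver expresses an RNAi transgene once the rise from 25 °C to 29 °C inactivates the GAL80ts repressor. CNS were taken at 36 h after puparium formation, following 24 h of knockdown, and at 72 h, following 24 h of knockdown and 36 h of recovery, with age-matched wild type. Each of the 4 groups had 2 samples, and each sample pooled about 10 CNS. The knockdown animals differ from Canton S in strain, transgenes and the knockdown itself, and these cannot be told apart here. Whether wild type pupae also went through the temperature shift is not given in the sources used here.

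The deposited tables hold 1 FPKM per gene and group, pooled by the authors over the 2 samples. There is thus no spread between replicates to test a difference against, and no difference below was tested. Differences are given as the log2 of the ratio of 2 FPKM values, and a 2-fold size is read beside the share of all genes that reached it. The 36 h and 72 h tables were normalized separately, which bears on every level set across ages. Over the 8312 genes the median log2 ratio of 72 h over 36 h was -0.40 in wild type and -0.37 in knockdown.

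The fly eye owes its colour to brown ommochromes, made from tryptophan, and red pteridines, made from GTP. Both are stored in granules of the retinal pigment cells, and the white protein (*w*) carries precursors into the granules as a partner of scarlet (*st*) for ommochromes and of brown (*bw*) for pteridines. The early pteridine steps also yield tetrahydrobiopterin, the cofactor of the enzymes that make dopamine and serotonin, so that these genes have a use in neurons too. A shortened *w* gene is the usual visible marker of fly transgenes.

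The 9 neuron markers and 7 glia markers searched were all above 15 FPKM in every group (the tissue is labelled as pupal brain and CNS). Genes of the eye were present as well. Of 17 photoreceptor markers, 11 were at or above 1 FPKM at 36 h and 16 at 72 h in each genotype, and *ninaE*, the major rhodopsin, was at 0.344 FPKM in wild type and 0.203 in knockdown at 36 h, against 225 and 322 at 72 h. Whether retina was left on the dissected CNS is not given in the sources used here. The summed FPKM of 3 lens and retinal pigment cell markers was 7.21 in wild type and 5.16 in knockdown at 36 h, and 84.4 and 49.8 at 72 h. Malpighian tubules also use these pigment genes, and of 3 tubule markers found *Uro* was at most 0.0358 FPKM. The potassium channel genes *Irk3* and *Irk2*, on the same list, were not low. *Irk3* was at 12.0 FPKM in wild type and 12.6 in knockdown at 36 h, and at 66.5 and 74.3 at 72 h, and *Irk2* was at 34.8 and 41.0 FPKM, and then at 6.03 and 3.93. The part of tubule tissue was not tested. *Stim* itself was at 42.2 FPKM in wild type and 33.9 in knockdown at 36 h, and at 38.6 and 31.3 at 72 h. In bulk tissue, fewer cells of a type and less RNA per cell cannot be told apart.

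Most pigment genes were at near levels in the 2 genotypes. At 36 h, 1 of the 10 genes (*w*) was at least 2-fold higher and 1 (*ry*) at least 2-fold lower in knockdown, and 8 lay within 2-fold. Among the 6 genes above 1 FPKM in every group the counts were also 1 and 1. Over the 8312 genes, 0.902% were at least 2-fold higher and 1.61% at least 2-fold lower. At 72 h, 1 gene (*w*) was at least 2-fold higher, 2 (*ry* and *st*) were at least 2-fold lower and 7 lay within 2-fold, beside 1.24% higher and 1.96% lower over the 8312 genes. *st* is not among the genes above 1 FPKM in every group, and of the 6 that are, 1 was higher and 1 lower. Over genes above 0 FPKM in both groups, 12.1% were at least 2-fold lower at 72 h. For the 10 genes together the median log2 ratio came to -0.10 (36 h) and -0.03 (72 h), beside 0.00 over all genes at either age.

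**Figure D1:**
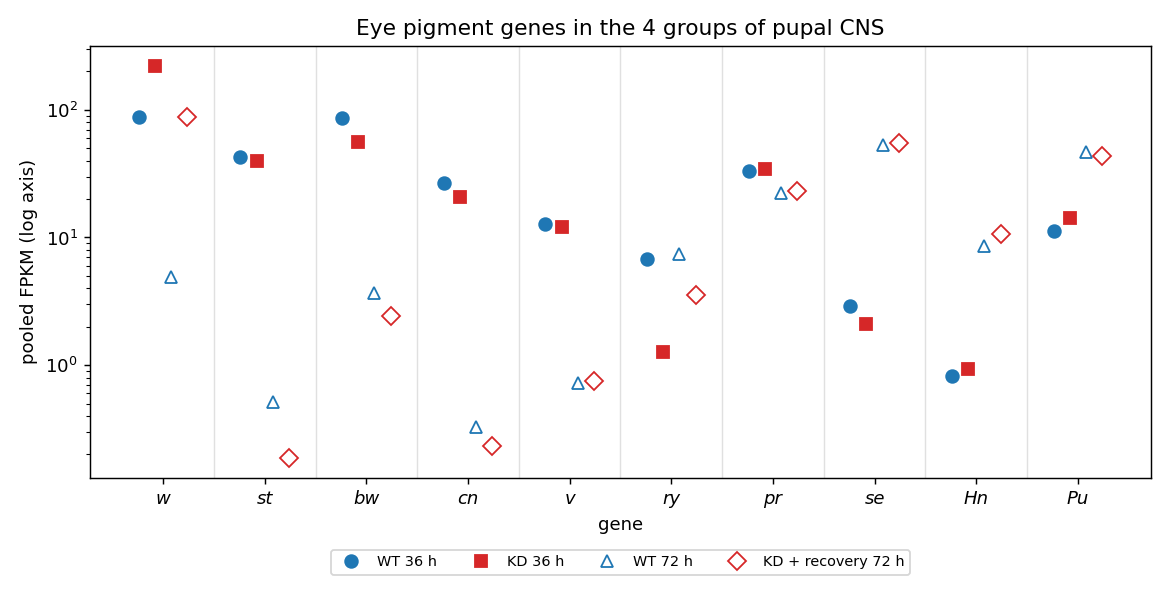
Pooled FPKM (log axis) of the 10 eye pigment genes in the 4 groups, 1 point per gene and group, with no error because replicates were pooled by the authors. Age separates the points of most genes, while the genotypes stand apart for *w* at 72 h (4.94 against 87.3) and for *ry* at 36 h (6.80 against 1.27).

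*w* (FBgn0003996, chromosome X from 2684632 to 2690499 in dm3) encodes the transporter subunit shared by both pigment routes. It was at 88.0 FPKM in wild type and 222 in knockdown at 36 h, and at 4.94 in wild type and 87.3 after recovery at 72 h. It was therefore 2.52-fold higher in knockdown at 36 h and 17.6-fold higher at 72 h, log2 ratios of 1.34 and 4.14. At 36 h, 30 of the 8312 genes had a larger log2 ratio, and at 72 h 0 did. The excess in knockdown was 134 FPKM at 36 h and 82.3 FPKM at 72 h, so the ratio was larger at 72 h while the difference was smaller. The level after recovery (87.3 FPKM) was close to that of the younger wild type CNS (88.0 FPKM), in separately normalized tables.

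The partners of *w* did not share its excess. *st* (FBgn0003515, chromosome 3L) was at 42.8 FPKM in wild type and 39.8 in knockdown at 36 h, and at 0.516 and 0.187 at 72 h. *bw* (FBgn0000241, chromosome 2R from 19411381 to 19426016 in dm3, an entry shared with *mi*) was at 85.9 and 55.9 FPKM at 36 h, and at 3.70 and 2.41 at 72 h. *bw* thus had the same log2 ratio of -0.62 at both ages, whereas that of *st* was -0.10 at 36 h and -1.46 at 72 h. The ratio of *st* at 72 h sets 2 levels below 1 FPKM against each other, and it became -0.35 with 1 FPKM added to each. In wild type the FPKM of *w* was 1.02 times that of *bw* at 36 h and 1.34 times at 72 h. In knockdown it was 3.97 and 36.2 times that of *bw*. FPKM is per length, so these levels may be set side by side. Reads of a transgene copy of *w*, if there is one, would be scaled by the annotated transcript length of *w*.

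The reads of *w* cannot be assigned to the endogenous gene or to a transgene marker in these tables, and knockdown and transgenes coincide in the design. The genes next to *w* on the chromosome were closer between genotypes. Neighbours here and below were taken among genes of at least 1 FPKM in any group. *CG32795*, the nearest on its left, was at 44.7 FPKM in wild type and 37.4 in knockdown at 36 h, and at 36.2 and 36.1 at 72 h. *CG3603*, 152 kb away on its right, was at 10.3 and 13.0 FPKM at 36 h, and at 4.74 and 7.46 at 72 h. Farther out, *Syx4* had log2 ratios of 0.12 and -0.17, and *CG4116* had 0.55 at 36 h and was listed at 0 in both genotypes at 72 h. Of 8 genes on either side, 0 of 16 were past 2-fold at either age, with log2 ratios from -0.57 to 0.55 at 36 h and from -0.79 to 0.65 at 72 h. That count is near the share of the 8312 genes, 0.902% higher and 1.61% lower at 36 h, and 1.24% and 1.96% at 72 h. The source of the *w* reads was not tested.

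**Figure D2:**
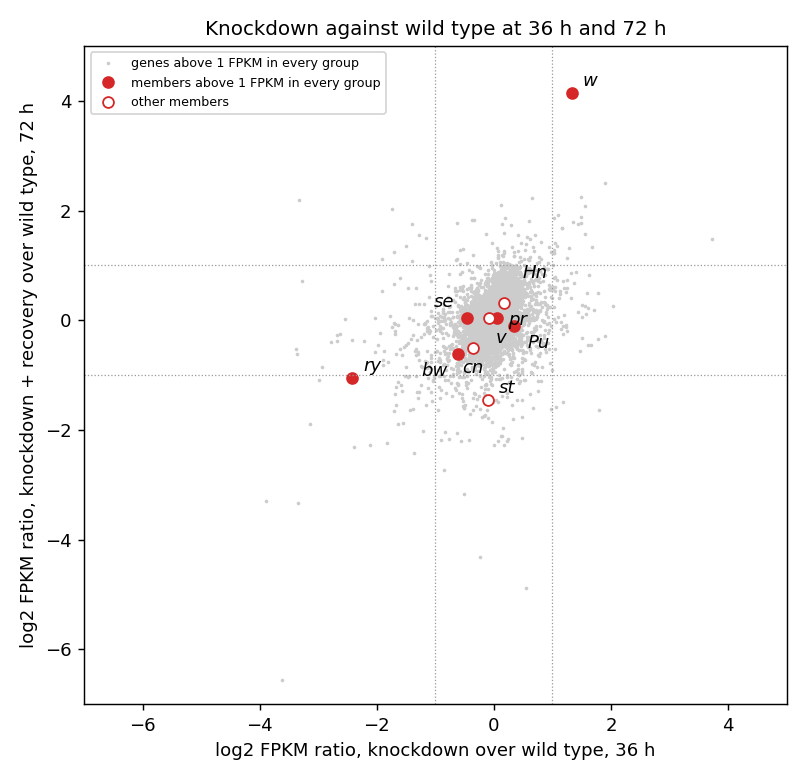
Log2 FPKM ratio of knockdown over wild type at 36 h (x axis) and of knockdown with recovery over wild type at 72 h (y axis) for the 10 eye pigment genes (red, filled where above 1 FPKM in every group) and for the 8312 genes above 1 FPKM in every group (grey). Dotted lines mark 2-fold, and *w* (1.34 and 4.14) and *ry* (-2.42 and -1.06) lie outside them on both axes.

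The ommochrome enzymes *v* and *cn* lay within 2-fold between the 2 genotypes at both ages, with *cn* lower in knockdown at each. *v* (FBgn0003965, chromosome X from 10818023 to 10819671 in dm3), tryptophan dioxygenase, opens the route. It was at 12.8 FPKM in wild type and 12.1 in knockdown at 36 h, and at 0.726 and 0.748 at 72 h. *cn* (FBgn0000337, chromosome 2R from 3670302 to 3672711 in dm3), kynurenine monooxygenase, acts after it. It was at 26.8 and 20.8 FPKM at 36 h, and at 0.328 and 0.231 at 72 h. Both enzymes were thus well expressed at 36 h and below 1 FPKM in both genotypes at 72 h, where CuffDiff did not test them or *st*. Their log2 ratios of knockdown over wild type were -0.09 and 0.04 for *v*, and -0.36 and -0.51 for *cn*.

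Of the 4 other ommochrome genes listed, 0 were past 2-fold at 36 h and 1 was at least 2-fold lower at 72 h, the peroxidase gene *cd* (listed as *CG6969*), which acts late in the route. *cd* was at 74.0 FPKM in wild type and 64.5 in knockdown at 36 h, and at 0.639 and 0.136 at 72 h. As for *st*, its log2 ratio of -2.23 at 72 h compares levels below 1 FPKM. The kynurenine formamidase *KFase* (*CG9542*) had log2 ratios of 0.31 and -0.18. *kar*, named for its eye colour phenotype, had 0.17 and 0.51, and the kynurenine aminotransferase *Kyat* (*CG6950*) had -0.13 and 0.14. The 4 genes had a median of 0.02 (36 h) and -0.02 (72 h).

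In the pteridine route, the enzymes that lead to tetrahydrobiopterin and to the red drosopterins were within 2-fold between genotypes at both ages. *Pu* (FBgn0003162, chromosome 2R from 17062822 to 17070121 in dm3), GTP cyclohydrolase, starts the route, and was at 11.3 FPKM in wild type and 14.3 in knockdown at 36 h, and at 46.7 and 43.4 at 72 h. *pr* (FBgn0003141, chromosome 2L from 20066370 to 20075467), the pyruvoyl tetrahydropterin synthase, was at 33.3 and 34.5 FPKM at 36 h, and at 22.3 and 22.9 at 72 h. *pr* was thus the steadiest of the 10 genes between genotypes, with log2 ratios of 0.05 and 0.04. *se* (FBgn0086348, chromosome 3L from 8513652 to 8516600), a glutathione S-transferase of the drosopterin branch, was at 2.88 and 2.09 FPKM at 36 h, and at 52.9 and 54.5 at 72 h. *Hn* (FBgn0001208, chromosome 3L from 7753577 to 7756268), phenylalanine hydroxylase, which uses the cofactor, was at 0.827 and 0.934 FPKM at 36 h, and at 8.50 and 10.6 at 72 h. The log2 ratios of knockdown over wild type were 0.34 and -0.11 for *Pu*, -0.46 and 0.04 for *se*, and 0.18 and 0.32 for *Hn*.

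*ry* (FBgn0003308, chromosome 3R from 8858259 to 8863748 in dm3), xanthine dehydrogenase, oxidizes pterins and purines and stood apart from the rest of the route. It was at 6.80 FPKM in wild type and 1.27 in knockdown at 36 h, and at 7.44 and 3.57 at 72 h. It was 5.35-fold lower in knockdown at 36 h and 2.08-fold lower after recovery, log2 ratios of -2.42 and -1.06. Of the 8312 genes, 15 had a lower ratio at 36 h and 137 at 72 h. The size at 72 h lies near 2-fold, and the log2 ratio was -0.98 when centred on genes of similar FPKM and -0.88 with 1 FPKM added. *ry* needs the molybdenum cofactor that *mal* and *cin* help to make. *mal* had log2 ratios of -0.38 and -0.74, and *cin* of -0.05 and 0.04.

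Of the 7 other pteridine genes found, 0 were past 2-fold at either age, with a median log2 ratio of -0.05 at 36 h and -0.17 at 72 h. These were *mal*, *cin*, *cl*, *DhpD*, *Dhpr*, *Sptr* and *Pcd*. Their log2 ratios ran from -0.38 (*mal*) to 0.16 (*Sptr*, sepiapterin reductase) at 36 h, and from -0.74 (*mal*) to 0.04 (*cin*) at 72 h. *ry* was therefore the only gene of the pteridine list at least 2-fold lower at either age, as *w* was the only gene at least 2-fold higher.

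The genes beside *ry* were lower too. *Hsc70-2*, a heat shock cognate 6.73 kb to the right, was at 43.6 FPKM in wild type and 0.342 in knockdown at 36 h, and at 5.45 and 0.266 at 72 h. *CG31157*, next to it, was at 28.9 FPKM in wild type at 36 h and listed at 0 in knockdown, and at 3.09 and 0.0776 at 72 h. *CG7966* was at 21.4 and 8.28 FPKM at 36 h, and at 17.8 and 5.81 at 72 h. *CG11668*, between *ry* and *Hsc70-2*, was at 0.487 and 0.0316 FPKM at 36 h, and at 5.57 and 0.788 at 72 h. Among genes of at least 1 FPKM in any group, these 4 genes and *ry* form a run of 5. It lies on chromosome 3R from 8858259 to 8877172 in dm3, and all 5 were at least 2-fold lower in knockdown at both ages. *CG11668* met that level only in wild type at 72 h, and its ratio at 36 h compares levels below 1 FPKM. *CG31157* and *CG7966* lie beyond the nearest 2 genes on each side and were looked at after the values of *ry* were seen.

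The stretch had edges on both sides. To the left, *l(3)87Df* had log2 ratios of -0.74 and -0.87, and *CG12360* beyond it had 0.17 and 0.39. To the right, *pic* had -0.33 and -0.10, and *sim* beyond it had 0.08 and 0.32. The run of genes that were lower in knockdown at both ages, from *l(3)87Df* to *pic*, held 7 genes over 25.8 kb. Summed over these 7 genes, wild type had 172 FPKM at 36 h against 58.8 in knockdown, and 108 against 49.9 at 72 h. Among 8 genes on either side of *ry*, 5 of 16 were at least 2-fold lower at 36 h (with *timeout* as the fifth) and 5 at 72 h (with *CG11656*), and 0 were at least 2-fold higher at either age. Over the 8312 genes, 1.61% were at least 2-fold lower at 36 h and 1.96% at 72 h. Several of the neighbours counted were below 1 FPKM in a group and so outside that background. Over genes above 0 FPKM in both groups the shares were 6.54% and 12.1%. Strain differences at this place and the knockdown cannot be told apart.

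**Figure D3:**
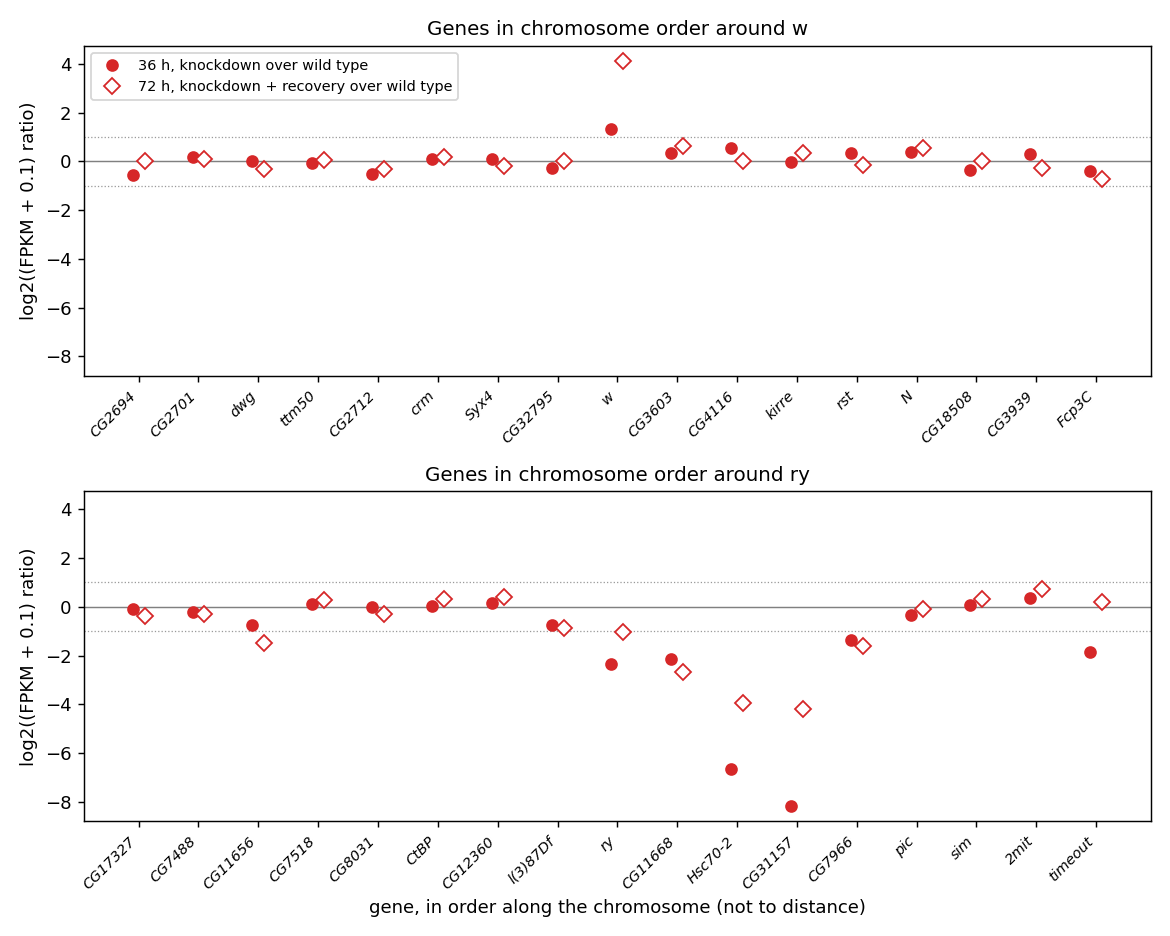
Log2 ratio of (FPKM + 0.1) in knockdown over wild type at 36 h (filled circles) and in knockdown with recovery over wild type at 72 h (open diamonds), for *w* and *ry* and the 8 genes on either side in chromosome order, with dotted lines at 2-fold. *w* stands alone above its neighbours, while *ry* lies in a run of 5 genes beyond 2-fold at both ages.

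For most of the pigment genes the difference between ages exceeded that between genotypes. From 36 h to 72 h in wild type, 5 of the 10 genes were at least 2-fold lower (*w*, *st*, *bw*, *cn* and *v*), 3 were at least 2-fold higher (*se*, *Hn* and *Pu*) and 2 (*ry* and *pr*) lay within 2-fold. Over the 8312 genes, 23.3% were at least 2-fold lower and 10.5% at least 2-fold higher. In knockdown the counts were 5 lower, 4 higher and 1 within 2-fold, beside 25.3% lower and 12.5% higher over all genes. *ry* made the difference between the genotypes, with log2 ratios of 0.13 in wild type and 1.49 in knockdown. Among the 6 genes above 1 FPKM in every group, 2 were lower and 2 higher in wild type, and 2 and 3 in knockdown.

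The genes that were lower at 72 h were lower by much. *st* was 83.0-fold and *cn* 81.7-fold lower in wild type, *bw* 23.2-fold, *w* 17.8-fold and *v* 17.7-fold. In knockdown *st* was 213-fold lower, *cn* 90.3-fold, *bw* 23.2-fold and *v* 16.1-fold, but *w* only 2.54-fold. The folds of *st*, *cn* and *v* end at levels below 1 FPKM. A size of 16-fold, looked at after the values were seen, was reached by 5 of the 7 pigment genes of at least 10 FPKM at 36 h in wild type, and by 4 of 7 in knockdown, where *w* did not reach it. The count in wild type was 3 in place of 5 with 1 FPKM added, with each group divided by its median, or with centring on genes of similar FPKM. Over all genes of at least 10 FPKM at 36 h, 2.55% reached it in wild type and 2.94% in knockdown. *cd* was lower by more than any member, with log2 ratios of -6.85 in wild type and -8.89 in knockdown.

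*st*, *bw*, *cn* and *v* were thus lower at 72 h in both genotypes, whereas *w* kept 87.3 FPKM in knockdown, and *se*, *Hn* and *Pu* were higher. Most of the other ommochrome genes were lower as well, whereas none of the other pteridine genes was at least 2-fold higher. Over all genes, 23.3% were at least 2-fold lower in wild type and 25.3% in knockdown. Of the 4 other ommochrome genes, 3 were at least 2-fold lower at 72 h in wild type and 2 in knockdown, and *Kyat* had log2 ratios of 0.35 and 0.62. Of the 7 other pteridine genes, 3 were at least 2-fold lower in wild type (*mal*, *cl* and *DhpD*) and 4 in knockdown, with 0 at least 2-fold higher in either. Except for *cd*, these genes lay not far past 2-fold in wild type. Their log2 ratios were -1.12 (*mal*), -1.12 (*cl*), -1.27 (*DhpD*), -1.02 (*KFase*) and -1.13 (*kar*), beside a median of -0.40 over all genes. Of all 42 other pathway genes, 17 were past 2-fold in wild type, and 12 with each group divided by its median. *se* was 18.4-fold higher at 72 h in wild type and 26.1-fold in knockdown, *Hn* 10.3-fold and 11.3-fold, and *Pu* 4.13-fold and 3.04-fold. *pr* had log2 ratios of -0.58 and -0.59, near the medians of all genes. Without *w*, the other 9 genes summed to 224 FPKM in wild type against 182 in knockdown at 36 h, and to 143 against 139 at 72 h. The highest gene changed with age in wild type, from *w* at 36 h to *se* at 72 h, and was *w* at both ages in knockdown.

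**Figure D4:**
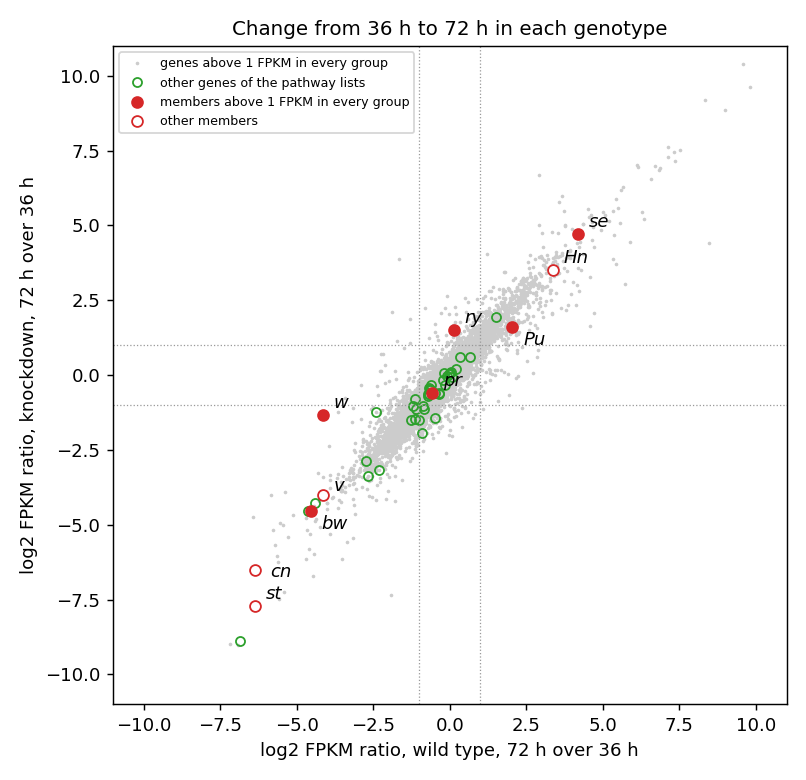
Log2 FPKM ratio of 72 h over 36 h in wild type (x axis) and in knockdown (y axis) for the 10 eye pigment genes (red, filled where above 1 FPKM in every group), the other genes of the ommochrome, pteridine, granule trafficking and ABCG lists (green) and the 8312 genes above 1 FPKM in every group (grey), with dotted lines at 2-fold. *w* (-4.15 and -1.35) lies far off the diagonal, and *st*, *cn*, *bw* and *v* lie at the low end in both genotypes.

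The users of tetrahydrobiopterin were higher at 72 h as well. *ple*, tyrosine hydroxylase, was at 4.90 FPKM in wild type and 3.43 in knockdown at 36 h, and at 27.5 and 26.8 at 72 h. *Trh*, tryptophan hydroxylase, was at 6.50 and 6.73 FPKM, and then at 20.3 and 25.2. *Nos*, nitric oxide synthase, was at 17.6 and 12.7 FPKM, and then at 35.4 and 36.2. Together with *Hn*, 4 of 4 were at least 2-fold higher at 72 h in either genotype, and 0 of 4 were past 2-fold between genotypes at either age. Over all genes, 10.5% were at least 2-fold higher in wild type and 12.5% in knockdown, and *Nos* lay close to 2-fold in wild type (log2 ratio 1.01). Neuron markers summed to 1795 FPKM at 36 h and 2068 at 72 h in wild type, and to 1952 and 3088 in knockdown, with 2 of 9 at least 2-fold higher and 2 lower in wild type, and 4 and 2 in knockdown. Glia markers summed to 878 and 6068 FPKM in wild type, and to 844 and 6827 in knockdown, with 4 of 7 at least 2-fold higher and 0 lower in either. Between genotypes at 72 h, 9 of 9 neuron markers were higher in knockdown (median log2 ratio 0.55), as were 6 of 7 glia markers (0.25). Of 4 hemocyte markers found, 3 were higher, and 7 of 7 fat body markers were lower (-0.34). None of the neuron, glia and fat body markers was past 2-fold there. The part of these cell types in the levels was not tested.

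In wild type, the genes of the machinery that delivers pigment to the granules differed less between ages than *w*, *st* and *bw*. Of 16 granule trafficking genes found, 0 were past 2-fold between genotypes at either age. That is near the share of all genes, 0.902% higher and 1.61% lower at 36 h, and 1.24% and 1.96% at 72 h. Their median log2 ratio was 0.02 (36 h) and 0.05 (72 h). *bw* was within 2-fold between genotypes as well. From 36 h to 72 h, 1 of 16 was at least 2-fold lower in wild type and 2 in knockdown, beside 23.3% and 25.3% of all genes. The largest difference was that of the Rab GTPase gene *Rab32* (listed as *ltd*). It was at 127 FPKM in wild type and 139 in knockdown at 36 h, and at 20.1 and 13.3 at 72 h. The other gene in knockdown was *Vps33B*, with a log2 ratio of -1.03.

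Transporters of the same ABCG family as *w*, *st* and *bw* differed among themselves with age. Of 12 such genes, 6 were at least 2-fold lower at 72 h and 1 higher in wild type, and 8 and 1 in knockdown, beside 23.3% lower and 10.5% higher over all genes in wild type and 25.3% and 12.5% in knockdown. *CG4822* was at 33.9 FPKM in wild type and 32.5 in knockdown at 36 h, and at 1.38 and 1.39 at 72 h. *CG31689*, the gene that was higher, was at 1.57 and 1.82 FPKM, and then at 4.48 and 7.02. Between genotypes, 1 of 12 was past 2-fold at 36 h, *CG5853*, at 1.07 FPKM in wild type and 2.31 in knockdown, and 0 of 12 at 72 h. The excess of *w* was thus not shared by the other genes of its family at 72 h, where their log2 ratios ran from -0.57 to 0.76.

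Among the photoreceptor markers, the early eye factor *gl* was at 18.8 FPKM in wild type and 20.5 in knockdown at 36 h, and at 1.64 and 1.60 at 72 h, an order by age like that of *st* and *bw*. Its log2 ratio of 72 h over 36 h was the lowest of the 17 in either genotype. The pigment cell gene *Pdh* ran the other way, at 2.14 and 2.86 FPKM and then at 39.6 in wild type against a lower level in knockdown (log2 ratio -0.99). On the list of *Pdh*, *Cpr72Ec* was at 4.42 FPKM in wild type and 1.07 in knockdown at 36 h, and at 44.7 and 29.8 at 72 h. *retinin*, also listed there, was lower at 72 h, at 0.655 and 1.22 FPKM and then at 0.0616 and 0. Over all photoreceptor markers, 4 of 17 were at least 2-fold lower and 9 at least 2-fold higher at 72 h in wild type, beside 23.3% and 10.5% over all genes, so that the lower count is near the background. Between genotypes, 2 of 17 were at least 2-fold higher and 1 lower in knockdown at 36 h, and 1 higher and 0 lower at 72 h, beside 0.902% higher and 1.61% lower over all genes at 36 h, and 1.24% and 1.96% at 72 h. Several of these markers were below 1 FPKM and so outside that background, *Rh6* (higher) and *Arr1* (lower) at 36 h among them. *ninaC*, the other that was higher at 36 h, was at 22.1 FPKM in wild type and 67.0 in knockdown. At 72 h it was at 50.5 and 71.5 FPKM, and so above 1 FPKM in every group. *trpl*, the marker that was higher at 72 h, was at 1.60 and 4.81 FPKM there and below 1 FPKM at 36 h. The part of eye tissue in the pigment gene levels was not tested.

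Genes whose levels over the 4 groups were most like those of each transporter were sought by the distance between centred log2(FPKM + 1) values. The search covered 7472 genes of at least 10 FPKM in any group. The 10 pigment genes and all genes of the pathway and marker lists were left out, so none of them could be named as near. For *st* the nearest were *TwdlE* (distance 0.14), *Hsp67Ba* (0.26) and *CG12643* (0.33), and for *bw* they were *CG13022* (0.28), *CG5883* (0.31) and *SelD* (0.40). *TwdlE*, for one, was at 70.8 FPKM in wild type and 64.6 in knockdown at 36 h, and at 1.19 and 0.815 at 72 h. For *w* no gene came as near, and the nearest were a small nucleolar RNA gene (distance 1.67), *CG3984* (1.83) and *Cpr47Ec* (1.90). *CG3984* was at 54.2 and 152 FPKM at 36 h, and at 17.2 and 81.3 at 72 h.

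Some of these values may hold reads of other genes. In the Ensembl annotation, 7 of the 10 genes (*w*, *st*, *bw*, *cn*, *pr*, *se* and *Pu*) are overlapped by a gene on the opposite strand, and the library kit does not keep strand, so reads of such a pair cannot be told apart where they overlap. *v*, *ry* and *Hn* had no such overlap. The gene that overlaps *w* there is *kirre*, which in the dm3 positions of the deposited values lies 156 kb away from *w*. As deposited, 5 of the 10 genes each share a locus entry with other genes. Each gene of such an entry has its own FPKM, so a shared entry alone does not show mixed reads. The entry of *st* spans 103 kb and 5 further genes, among them *dsx-c73A*, at 107 FPKM in wild type and 182 in knockdown at 36 h, and at 0.631 and 0.108 at 72 h.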

How the data were processed

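Total RNA of pooled pupal CNS was made into Illumina TruSeq v2 libraries by the authors, with 2 biological replicates per group, and reads were aligned to dm3. The submitters' processing notes name CASAVA, TopHat2 2.0.11, Cuffdiff 2.2.0 and edgeR. The authors deposited 1 CuffDiff and 1 EdgeR table per age. In the CuffDiff tables the authors' values are FPKM, 1 for each gene in each group, which CuffDiff made from the aligned reads of both replicates after geometric normalization within an age. The EdgeR tables hold the authors' log2 CPM averaged over the libraries. The log2 CPM of the 72 h table differed from that of the 36 h table by a median of 0.000853 over 10107 genes, against 0.72 in log2 mean FPKM, so it was used for nothing at 72 h. At 36 h the average was highest for *w* (316 CPM) and lowest for *Hn* (1.35 CPM). Columns with the authors' fold changes, test statistics, p-values and q-values were not used. 0 columns belonged to other series.

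Log2 ratios of FPKM were computed with no pseudocount in Python 3.11.15 with pandas 2.3.3 and NumPy 2.4.6, and drawn with matplotlib 3.10.9. The scripts were tested on simulated data. No test across groups could be made, since no values per replicate are in the tables used, and the depth per sample is not given by them either. The share of all genes past 2-fold was counted over genes above 1 FPKM in every group. Alternatives were a pseudocount of 0.1 or 1 FPKM, division by the group median, centring on genes of similar FPKM (20 bins), a 1.5-fold size, and a background of genes above 0 FPKM in both groups. The 10 genes, the gene lists and the marker lists were chosen with earlier results of these data known. Named were all 10 genes, the 2 neighbours on each side of *w* and *ry*, and the 3 genes outside all lists that were most like each transporter. Of the gene lists, those with the largest and smallest log2 ratio among genes past 2-fold were named. Of the marker lists, not all such genes were named. Neighbours were sought among genes of at least 1 FPKM in any group. Other genes were named after their values were seen. Names were matched by symbol, or by locus tag, and 8 listed names were not found under the names searched and are not analysed here. Positions are those of the CuffDiff tables in dm3, counted from 1. Gene identifiers and overlaps came from Ensembl release 115, which uses another build, so that none of its coordinates are given.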

Additional observations from a re-analysis of the deposited data

How the results depend on the processing

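Of 160 log2 ratios recomputed for the 10 genes under 4 alternatives, 157 kept their side of 2-fold, and none of those past it changed direction. The 3 that did not stay past 2-fold were at 72 h: *st* (-0.35 with a pseudocount of 1 FPKM) and *ry* (-0.88 with that pseudocount and -0.98 centred on genes of similar FPKM). With the pseudocount of 1 FPKM, 1 gene (in place of 3) was past 2-fold between genotypes at 72 h. Among the other pathway genes the counts past 2-fold with that pseudocount were 0 in place of 1 at 36 h and 0 in place of 1 at 72 h. With a 1.5-fold size, 5 of these genes in place of 1 were past it at 72 h, and 28 in place of 17 from 36 h to 72 h in wild type. The count of 17 past 2-fold was 12 with each group divided by its median, and 12 with centring. In knockdown the count from 36 h to 72 h was 20, and it was 15 with that division and 14 with centring. The count of pigment genes at least 16-fold lower at 72 h in wild type, added after the data were seen, was 5, and 3 with a pseudocount of 1 FPKM, with division by the group median or with centring. Taking 8 rather than 2 genes on either side of *ry* gave 5 in place of 2 neighbours past 2-fold at 36 h. Over genes above 0 FPKM in both groups, the background shares were 5.04% higher and 6.54% lower at 36 h, 3.73% and 12.1% at 72 h, and 18.2% higher from 36 h to 72 h in wild type. No paired analysis was possible because the tables have no column per replicate, and leaving out each replicate was not run for the same reason. *st*, *cn* and *v* were below 1 FPKM at 72 h in both genotypes and were not tested there by CuffDiff, and the depth per sample is not given by the tables.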
